A study of Homo sapiens with 6 samples.

Results

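Genes tied to the restraint of the kinase complex mTORC1 when nutrients run short, 10 in number, were followed through glucose deprivation in HCT116 cells. They were the sestrins SESN1, SESN2 and SESN3, DDIT4 (which encodes REDD1), TSC1, TSC2, DEPTOR, RRAGC, RRAGD and FLCN. RRAGC and RRAGD encode Rag GTPases, which recruit mTORC1, and FLCN acts on these, so not all 10 genes encode inhibitors. The 10 genes were chosen by symbol from the 14987 genes of the deposited table. All 10 were listed, and all 10 were among the 12263 genes tested. HCT116 is an established human colorectal carcinoma line. The NC cells, labelled wild type, gave 1 library in control medium and 1 after glucose had been withheld for 6 h. Cells with a YAP knockdown gave 2 control and 2 deprived libraries, 1 for each of the shYAP1 and shYAP3 cells. The study asked what YAP, a transcriptional coactivator held in check by the Hippo kinases, contributes to expression induced by glucose deprivation. The labels state neither separate cultures nor whether cells were a clone or a pool, so p-values reflect only the scatter among these libraries. In these bulk samples fewer cells of a kind and less RNA per cell cannot be told apart.

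mTORC1 is a kinase complex on the lysosome surface that promotes protein synthesis and growth when amino acids, growth factors and energy are in supply. Amino acids reach it through the Rag GTPases, which recruit it to the lysosome, and growth factors and energy through the TSC complex, which switches off the small GTPase Rheb that activates it. Sestrins and REDD1 are stress-induced brakes on these arms, and transcription of their genes is known to be raised by stress factors such as ATF4, HIF-1 and the FOXO proteins.

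Values are deposited normalized read counts, and fold changes and tests are on log2(value + 1), which understates the changes of low genes. The libraries held 16912634 to 22161075 listed reads, and 1 read was worth 0.0406 to 0.0693, and 3 reads, the limit that a count of 0 allows, 0.122 to 0.208. Values of 3 libraries are given in the order NC, shYAP1, shYAP3. YAP1, the knockdown target, had control values of 188, 35.7 and 38.2 and deprived values of 154, 20.3 and 18.2. The shYAP3 deprived library stood apart. Its median deviation from the gene mean was 0.44 on the log2 scale among the shortest and −0.29 among the longest 10% of transcripts, against −0.19 to 0.14 and −0.08 to 0.12 in the other 5 libraries. Of 12 colorectal epithelial markers 9 were listed, with summed values of 3294 to 4564 in control and 5347 to 6319 in deprived libraries, and CDX1, CEACAM5 and ASCL2 were not among the listed genes. Markers of other cells summed to 8.23 to 10.5 in control and 3.05 to 6.33 in deprived libraries for fibroblasts (4 of 8 listed), 5.36 to 9.41 and 8.41 to 16.4 for leukocytes (5 of 8), and 3.74 to 5.11 and 3.81 to 8.13 for endothelium (4 of 6). Only 1 gene of each of these lists reached 1, and COL1A2, PTPRC, PECAM1 and CDH5 were not listed. The part of these sums in the results was not tested.

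Glucose deprivation raised SESN2, DDIT4 and DEPTOR and lowered SESN1. SESN2 rose 7.94-fold, DDIT4 2.24-fold and DEPTOR 1.92-fold, and SESN1 fell to 0.67 of its control level, all in the limma fit over 6 libraries. SESN3, TSC1, TSC2, RRAGC, RRAGD and FLCN did not pass the threshold of an adjusted p of 0.05. Of all genes tested with limma 32.1% passed, 16.5% higher and 15.6% lower, so 4 of 10 is near the share among all genes and is no result about the 10 genes as a group. Their median log2 fold change was 0.08, against 0.05 for all genes tested.

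**Figure D1:**
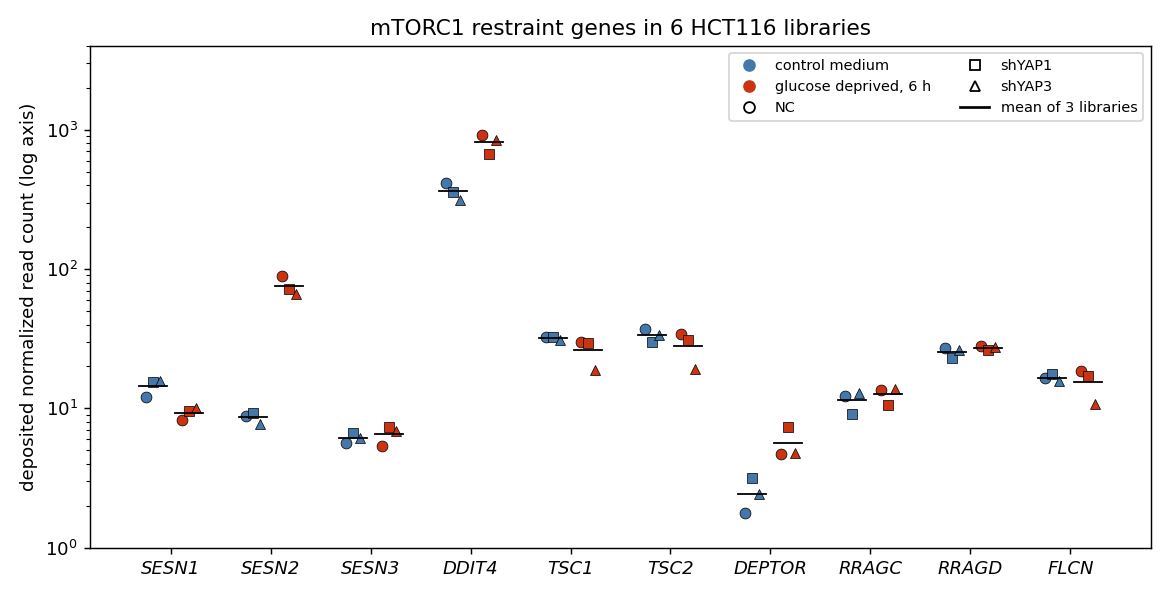
Deposited normalized read counts (log axis) of the 10 genes in 6 libraries, blue for control medium and red for 6 h of glucose deprivation, with circles for NC, squares for shYAP1 and triangles for shYAP3 and a bar at the mean of 3 libraries. SESN2 lies between 7.72 and 9.33 in control medium and between 65.99 and 89.5 after deprivation, and SESN1 moves the opposite way.

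The sestrins are a family of related proteins that inhibit mTORC1, with SESN2 known as a leucine-sensing inhibitor of GATOR2. SESN2 (ENSG00000130766) had control values of 8.80, 9.33 and 7.72 and deprived values of 89.5, 71.9 and 65.99. All 3 deprived libraries lay far above all 3 control libraries, and NC cells held the highest value after deprivation. In control medium NC and shYAP1 cells could not be ranked, with overlapping 95% exact Poisson intervals of 7.62 to 10.1 and 8.16 to 10.6. The mean went from 8.62 ± 0.818 to 75.8 ± 12.2 (SD, n = 3 libraries), and the ratios of deprived to control values were 10.2, 7.71 and 8.54. The log2 fold change was 2.99 (SE 0.15, 95% interval 2.66 to 3.32, limma adjusted p = 1.07e-05). SESN2 passed without each library in turn, with adjusted p of at most 0.00175.

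SESN1 (ENSG00000080546), known as a FOXO-responsive sestrin, moved the other way. Its control values were 12.01, 15.5 and 15.8 and its deprived values 8.25, 9.64 and 9.98. The 2 media did not overlap, and NC cells held the lowest value in each. After deprivation the 95% exact Poisson interval of NC cells (7 to 9.65) overlapped those of shYAP1 (8.23 to 11.2) and shYAP3 cells (8.42 to 11.8), so these could not be ranked. The mean went from 14.4 ± 2.09 to 9.29 ± 0.919 (SD, n = 3 libraries), which on the log2 scale was −0.58 (SE 0.14, 95% interval −0.89 to −0.27, limma adjusted p = 0.0147). The call was lost without the NC control (adjusted p = 0.0654), NC deprived (0.0654), shYAP1 control (0.0932) or shYAP3 control library (0.0961), while the log2 fold change stayed between −0.62 and −0.55.

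SESN3 (ENSG00000149212), a sestrin known as a FOXO target, had control values of 5.63, 6.69 and 6.13 and deprived values of 5.37, 7.38 and 6.93. These values, from 100 to 165 reads a library, overlapped between the media. The log2 fold change was 0.07 (95% interval −0.26 to 0.40, limma adjusted p = 0.723). Per kb of the longest GENCODE transcript, SESN2 made up 38.8%, 34.6% and 30.3% of the summed sestrin level in the control libraries and 89.9%, 85.5% and 84.3% in the deprived ones. SESN1 made up 52.2%, 56.4% and 60.95%, and then 8.15%, 11.3% and 12.5%. In every line the leading sestrin transcript was thus SESN1 in control medium and SESN2 after deprivation. With the median length of the coding transcripts in place of the longest, SESN3 made up 35.15% to 36.5% of the control level, but SESN1 and SESN2 led in the same media. The control shares of SESN1 were then 40.3%, 43.3% and 46.8%, so its lead over SESN3 was narrow in NC cells. Whether that lead exceeds counting error was not tested.

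DDIT4 (ENSG00000168209) encodes REDD1, a stress-induced protein that restrains mTORC1 through the TSC complex and is also induced by hypoxia and by glucocorticoids. Its level was the highest of the 10 genes per kb of transcript, with control values of 415, 356 and 314 and deprived values of 918, 674 and 845. All deprived libraries lay above all control libraries, and NC cells held the highest value in each medium. The mean went from 362 ± 50.8 to 812 ± 125 (SD, n = 3 libraries), with ratios of 2.21, 1.89 and 2.69. The log2 fold change was 1.16 (SE 0.15, 95% interval 0.83 to 1.498, limma adjusted p = 0.00153), and the gene passed without each library in turn, with adjusted p of at most 0.0278. An antisense gene, DDIT4-AS1, overlaps DDIT4 in GENCODE, and since a strand setting is not given in the sources used here, reads of the 2 cannot be told apart.

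The promoters of the 2 genes with the largest increases are shown with that of TSC2, which did not rise, to set their motifs side by side. Each is the 250 bases before a transcription start in RefSeq (GRCh38.p14), the first of 2 listed starts for TSC2. Of the 10 genes 8 had at least 1 such window, 11 windows in all. Capitals mark matches, on both strands, to any of 4 motifs. These were the E-box, CACGTG. They also included the core of the C/EBP-ATF element through which ATF4 acts, TGATGNAA. The third was a part of the cyclic AMP response element, TGACG. The last, the CCAAT box, was added after the sequences were seen. In the TSC2 window the matches to the first 3 overlap.
SESN2, chr1:28259268-28259517, + strand: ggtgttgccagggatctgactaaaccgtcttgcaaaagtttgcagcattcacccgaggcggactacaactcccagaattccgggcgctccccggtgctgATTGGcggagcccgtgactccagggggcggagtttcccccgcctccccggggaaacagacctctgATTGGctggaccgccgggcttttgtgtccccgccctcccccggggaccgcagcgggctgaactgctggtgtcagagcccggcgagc
DDIT4, chr10:72273674-72273923, + strand: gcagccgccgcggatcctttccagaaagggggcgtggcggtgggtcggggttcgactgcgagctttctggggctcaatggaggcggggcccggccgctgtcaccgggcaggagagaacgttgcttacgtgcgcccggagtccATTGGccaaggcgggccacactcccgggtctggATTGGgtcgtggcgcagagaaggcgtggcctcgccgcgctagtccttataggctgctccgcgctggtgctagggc
TSC2, chr16:2047735-2047984, + strand: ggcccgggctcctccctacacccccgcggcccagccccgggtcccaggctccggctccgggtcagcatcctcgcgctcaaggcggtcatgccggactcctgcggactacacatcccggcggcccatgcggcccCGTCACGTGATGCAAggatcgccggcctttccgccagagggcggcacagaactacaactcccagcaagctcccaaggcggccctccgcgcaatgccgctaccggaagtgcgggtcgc

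SESN2 and DDIT4 each held 2 CCAAT boxes, both on the − strand, with first bases 151 and 86 before the SESN2 start and 108 and 75 before the DDIT4 start. Of 35116 RefSeq windows of this length, 32.0% held at least 1 CCAAT box and 9.53% at least 2. Neither window held the other 3 motifs, which says only that these letters are not in these 250 bases. The TSC2 window held the E-box (6.35% of all windows), the C/EBP-ATF core (3.14%) and the cyclic AMP element part (21.2%), 1 match of each. The second TSC2 window held none of the 4 motifs. The RRAGC window held an E-box, a cyclic AMP element part and a CCAAT box. SESN1, which fell, also held CCAAT boxes, 1 in each of 2 of its 3 windows, and 1 of these windows held 2 cyclic AMP element parts.

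DEPTOR (ENSG00000155792) encodes an inhibitory subunit of both mTOR complexes. Its reads were few, 40, 78 and 53 in the control and 89, 127 and 69 in the deprived libraries. The values were 1.76 (95% exact Poisson interval 1.26 to 2.40), 3.16 (2.501 to 3.95) and 2.41 (1.80 to 3.15) in the control libraries, and 4.74 (3.80 to 5.83), 7.38 (6.15 to 8.78) and 4.78 (3.72 to 6.05) in the deprived ones, with intervals that cover counting error only. The media did not overlap, and shYAP1 cells held the highest value in each. The log2 fold change was 0.94 (SE 0.19, 95% interval 0.52 to 1.36, limma adjusted p = 0.00785). The call was lost without the NC control (adjusted p = 0.0588), NC deprived (0.0594) or shYAP3 control library (0.0501). With a pseudocount of 0.1 the log2 fold change was 1.18.

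TSC1 and TSC2 encode hamartin and tuberin, which form the complex that switches off Rheb. TSC1 (ENSG00000165699) had control values of 32.8, 32.3 and 31.2 and deprived values of 29.9, 29.4 and 18.9. The media did not overlap, but only the shYAP3 deprived library lay far below the rest. TSC2 (ENSG00000103197) had control values of 37.1, 30.1 and 33.5 and deprived values of 34.2, 30.8 and 19.3, again with the shYAP3 deprived library lowest. Neither passed in limma, with log2 fold changes of −0.32 (95% interval −0.72 to 0.08, adjusted p = 0.194) for TSC1 and −0.28 (−0.70 to 0.13, adjusted p = 0.255) for TSC2. Without the shYAP3 deprived library these were −0.12 and −0.074, and with trends of transcript length and GC content removed they were 0.018 and 0.096. NTHL1 and PKD1 overlap TSC2 on the opposite strand, and in the shYAP3 deprived library PKD1 had its lowest value, 33.6, and NTHL1 its highest, 25.9.

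FLCN encodes folliculin, which with FNIP1 or FNIP2 acts on the Rag GTPases RagC and RagD. FLCN (ENSG00000154803) had control values of 16.5, 17.6 and 15.7 and deprived values of 18.5, 17.0 and 10.7, and was thus also lowest in the shYAP3 deprived library. MPRIP, which overlaps FLCN on the opposite strand, was lowest there too, at 98.1. The FLCN log2 fold change was −0.14 (95% interval −0.57 to 0.30, limma adjusted p = 0.606), and 0.081 without that library. The part of the length and GC dependence of that library in the low values of TSC1, TSC2 and FLCN was not tested beyond the removal of the trends, under which the log2 fold change of FLCN was 0.00223.

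RRAGC and RRAGD encode RagC and RagD, the Rag GTPases that pair with RagA or RagB. RRAGC (ENSG00000116954) had control values of 12.2, 9.09 and 13.0 and deprived values of 13.5, 10.6 and 13.9. RRAGD (ENSG00000025039) had control values of 27.3, 23.0 and 26.2 and deprived values of 27.8, 26.3 and 27.5. The values of both were slightly higher after deprivation in every line, with overlapping media and shYAP1 cells lowest in each. For RRAGD after deprivation the 95% exact Poisson interval of shYAP1 cells (23.9 to 28.9) overlapped those of NC (25.5 to 30.3) and shYAP3 cells (24.9 to 30.4), so these could not be ranked. The log2 fold changes were 0.14 (95% interval −0.26 to 0.54, limma adjusted p = 0.554) and 0.09 (−0.21 to 0.40, adjusted p = 0.606), and both were negative when values were scaled to listed reads (−0.14 and −0.20).

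**Figure D2:**
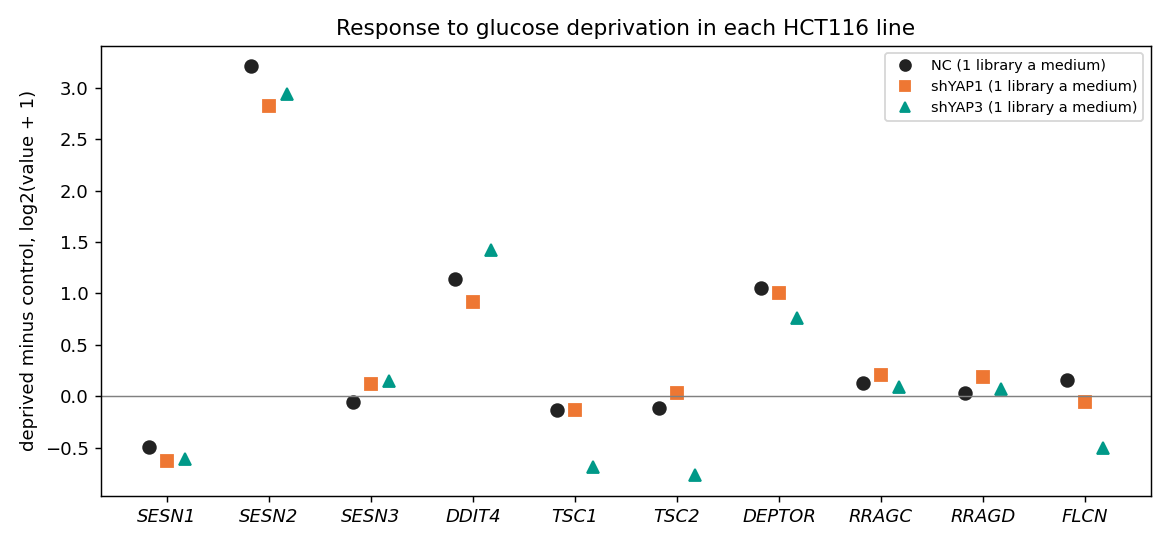
Deprived minus control value on log2(value + 1) for each of the 10 genes in NC (black circles), shYAP1 (orange squares) and shYAP3 cells (green triangles), from 1 library in each medium. SESN2, DDIT4 and DEPTOR lie above 0 and SESN1 below 0 in all 3 lines, whereas TSC1, TSC2 and FLCN lie lowest in shYAP3 cells, at −0.69, −0.77 and −0.51.

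Deprived and control libraries did not overlap for 5 of the 10 genes, SESN1, SESN2, DDIT4, TSC1 and DEPTOR, against 50.6% of all genes tested. The change had the same sign in all 3 lines for 7 of the 10, RRAGC and RRAGD included, against 66.3% of all genes. Scaling to listed reads moved the median log2 fold change of all genes from 0.05 to −0.24. Under that scaling SESN2 (2.70), DDIT4 (0.86), DEPTOR (0.71) and SESN1 (−0.86) still passed in the same directions, and TSC1 also passed (−0.62, limma adjusted p = 0.0385).

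**Figure D3:**
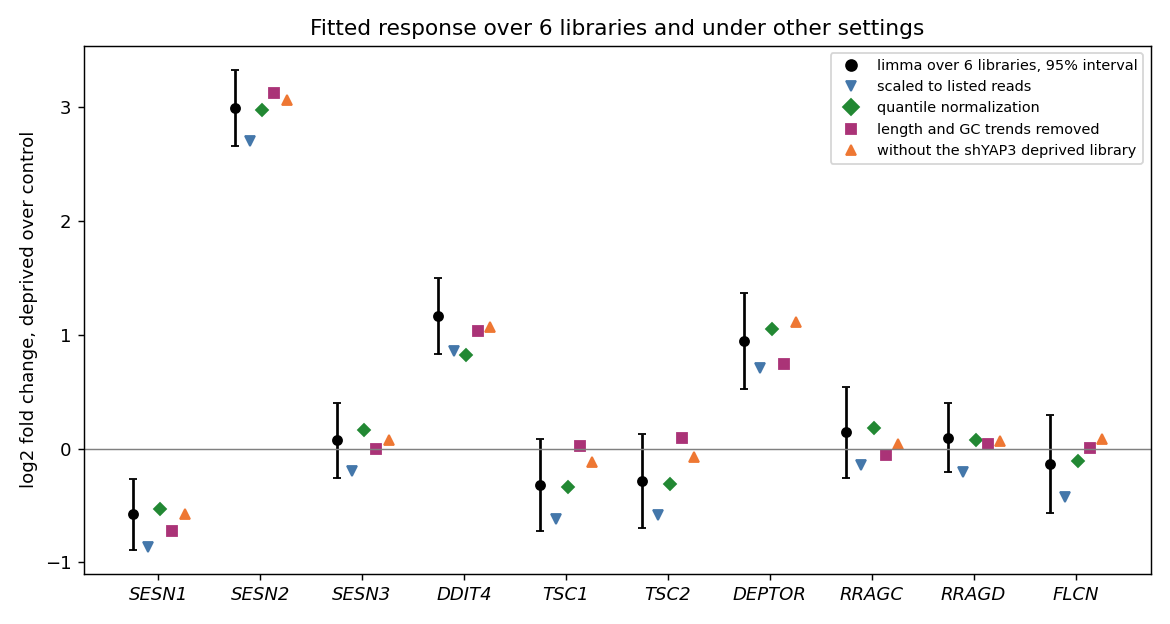
Log2 fold change of deprived over control for each gene, with the limma fit over 6 libraries and its 95% interval in black, and the values scaled to listed reads (blue), quantile normalized (green), with length and GC trends removed (purple) and without the shYAP3 deprived library (orange). SESN2, DDIT4, DEPTOR and SESN1 stay on 1 side of 0 in all of these, and TSC1, TSC2, FLCN, SESN3, RRAGC and RRAGD cross it in at least 1.

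Per kb of the longest transcript, DDIT4 stood far above the rest in control medium, at 207 ± 29.035 (SD, n = 3 libraries). TSC2 (5.29 ± 0.557), RRAGD (5.20 ± 0.453), FLCN (4.57 ± 0.272), RRAGC (4.19 ± 0.758), SESN1 (4.11 ± 0.594) and TSC1 (3.68 ± 0.0950) followed, and the ranges of neighbours among these 6 overlapped. SESN2 (2.496 ± 0.237), DEPTOR (0.951 ± 0.274) and SESN3 (0.644 ± 0.0556) came last, SESN2 below TSC1 and above DEPTOR in all libraries, and DEPTOR and SESN3 with overlapping ranges. After deprivation SESN2 was the second most abundant, at 22.0 ± 3.54, with all 3 libraries above those of the next gene, RRAGD (5.55 ± 0.164). With the median length of coding transcripts FLCN and TSC1 followed DDIT4 in control medium and SESN3 ranked above RRAGC, while DDIT4 stayed first and SESN2 was again second after deprivation.

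YAP knockdown was compared with NC over both media. The cells with less YAP held 0.865 times the NC level of SESN2, 0.814 times that of DDIT4, 1.22 times that of SESN1 and 1.29 times that of DEPTOR, and none of the 10 genes passed. In limma 0 of the 10 had an adjusted p under 0.05 and 0 an unadjusted p under 0.05, and edgeR and DESeq2 each called 0. Of all genes tested 0.00815% passed, which is 1 gene, YAP1 itself (log2 fold change −2.63, SE 0.17, limma adjusted p = 0.000825). The 95% intervals allow changes of −0.56 to 0.14 for SESN2, −0.65 to 0.059 for DDIT4, −0.040 to 0.62 for SESN1 and −0.084 to 0.81 for DEPTOR on the log2 scale.

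Within each medium, NC cells lay below both shYAP libraries for SESN1, SESN3 and DEPTOR and above both for DDIT4, TSC1, TSC2 and RRAGD, 7 of 10 genes. Among all genes tested 37.2% had NC cells on the same outer side in both media. DEPTOR in control medium was at 1.76 in NC cells against 3.16 and 2.41, and after deprivation at 4.74 against 7.38 and 4.78, where the shYAP3 value was inside the counting interval of NC. TSC2 in control medium was at 37.1 in NC cells (95% exact Poisson interval 34.7 to 39.7) against 30.1 and 33.5, both outside the interval. The interval of shYAP3 cells (31.1 to 36) still overlapped that of NC cells, and the interval of shYAP1 cells (27.9 to 32.3) did not. TSC1 in control medium was at 32.8 in NC cells (30.5 to 35.2) against 32.3 and 31.2, both inside. RRAGD after deprivation was at 27.8 in NC cells (25.5 to 30.3) against 26.3 and 27.5, both inside. The 7 orders thus do not all exceed counting error.

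The response to deprivation was then compared between YAP knockdown and NC cells. SESN2 rose by 3.21 on the log2 scale in NC cells and by 2.82 and 2.94 in shYAP1 and shYAP3 cells, a difference of −0.33 (95% interval −1.09 to 0.44, limma adjusted p = 0.99997). DDIT4 differed by 0.028 (−0.79 to 0.85), DEPTOR by −0.17 (−1.19 to 0.85) and SESN1 by −0.13 (−0.88 to 0.62). In limma 0 of the 10 genes passed and 0 had an unadjusted p under 0.05, edgeR and DESeq2 each called 0, and 0% of all genes tested passed. With intervals this wide, the data do not show that the response was the same. Without the shYAP1 deprived library FLCN (−0.74, adjusted p = 0.0108), TSC1 (−0.59, 0.0252) and TSC2 (−0.57, 0.0271) passed as lower in knockdown cells, as part of 2735 calls among all genes in either direction. That comparison rests on the shYAP3 deprived library, and without it the differences were 0.026 for TSC1, 0.075 for TSC2 and −0.13 for FLCN.

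Around these 10 genes, 60 other genes of the mTORC1 pathway in 5 lists were read from the same limma fit. Of the 58 tested, 7 rose and 13 fell, with a median log2 fold change of −0.01, against 16.5% higher, 15.6% lower and a median of 0.05 among all genes. Scaled to listed reads 1 of the 58 rose, C7orf60, and 23 fell, 7 of them of the mTOR complexes, where 749 of all genes rose and 3802 fell.

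Among genes of the mTOR complexes 4 of 9 tested fell and 1 rose, against 15.6% lower and 16.5% higher among all genes. The median was −0.38, and −0.23 with length and GC trends removed. TTI1, named after its values were seen, was the other gene that fell (−0.38), and it did not pass when any 1 of the 3 control libraries, the NC deprived or the shYAP1 deprived library was left out (adjusted p of at most 0.209 in limma), with the replicate block (0.0528) or without the variance trend (0.0530). RPTOR, the raptor subunit that defines mTORC1, went from 79.7 ± 5.72 to 45.5 ± 12.1 (SD, n = 3 libraries), a log2 fold change of −0.83, and the kinase MTOR itself from 114 ± 7.61 to 75.7 ± 22.2 (−0.63). PRR5, a subunit of mTORC2, fell by 0.53, and RICTOR, the subunit that defines mTORC2, rose by 0.65. RPTOR, MTOR, PRR5 and RICTOR did not pass without the NC control library, the NC deprived library or either shYAP control library, with limma adjusted p of at most 0.0692 for RPTOR, 0.122 for MTOR, 0.110 for PRR5 and 0.187 for RICTOR. MTOR had its lowest value, 52.5, in the shYAP3 deprived library and did not pass with length and GC trends removed (−0.23, adjusted p = 0.0838). RICTOR did not pass when scaled to listed reads (0.35, limma adjusted p = 0.180) or with no filter on low values (adjusted p = 0.0530).

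In the list of the TSC complex, Rheb and the growth factor arm, 2 of 12 rose and 4 fell. The median was −0.23, and −0.0075 with length and GC trends removed. PIK3R1, named after its values were seen, was among those that fell (−0.54), and did not pass when any 1 of the 3 control libraries or the NC deprived library was left out (limma adjusted p of at most 0.128). DDIT4L, which encodes REDD2, the close relative of REDD1, had control values of 16.7, 18.7 and 16.2 and deprived values of 6.39, 9.87 and 8.32. This decrease of −1.001 on the log2 scale (SE 0.16, limma adjusted p = 0.00336) was opposite in direction to DDIT4 and held without each library in turn. RHEB rose by 0.60 and IRS2, an insulin receptor substrate, by 0.83, whereas RHEBL1, a relative of RHEB, fell by 0.61 and PDPK1, the kinase that activates AKT, by 0.54. These 4 did not pass without the NC control, NC deprived, shYAP1 control or shYAP3 control library, with limma adjusted p of at most 0.102 for RHEB, 0.157 for IRS2, 0.116 for RHEBL1 and 0.182 for PDPK1. RHEBL1 also did not pass without the shYAP1 deprived library (adjusted p = 0.0554 in limma) or quantile normalized (0.0565), and PDPK1 did not pass with no filter on low values (0.0581). RHEB (0.30) and IRS2 (0.55) did not pass scaled to listed reads, and PDPK1 (−0.19) did not pass with length and GC trends removed.

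Of the 10 other Rag GTPases, Ragulator subunits and lysosomal partners 1 rose and 1 fell, with a median of 0.14. LAMTOR3, a Ragulator subunit, went from 21.0 ± 3.45 to 39.4 ± 17.8 (SD, n = 3 libraries; log2 0.80), with its highest value, 59.6, in the shYAP3 deprived library, and did not pass when scaled to listed reads. FNIP2, the partner of folliculin, went from 12.8 ± 1.11 to 7.69 ± 1.04 (log2 −0.67). Of the 15 GATOR, KICSTOR and amino acid sensor genes 1 rose and 2 fell, with a median of −0.09. C7orf60 (now BMT2), the S-adenosylmethionine sensor SAMTOR, rose by 0.75, and GATSL2 and GATSL3, which encode the arginine sensors CASTOR2 and CASTOR1, fell by 0.71 and 0.59 at values of 1.94 or less. All 5 lost the call without at least 1 library, with limma adjusted p of at most 0.106 for LAMTOR3 (without the shYAP1 control library), 0.0932 for FNIP2 and 0.0725 for C7orf60 (both without the shYAP3 control library), 0.0773 for GATSL2 (without the shYAP1 control library) and 0.114 for GATSL3 (without the shYAP3 control library). GATSL3 also did not pass when quantile normalized (−0.45, limma adjusted p = 0.0681).

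Of 12 mTORC1 effectors 2 rose and 2 fell, with a median of 0.13. The translation repressors of the 4E-BP family, which mTORC1 inactivates, split. EIF4EBP1 had control values of 43.9, 37.5 and 35.3 and deprived values of 60.98, 61.2 and 54.8 (log2 0.59). EIF4EBP2 had control values of 117.5, 113.6 and 109.7 and deprived values of 75.6, 87.6 and 52.1 (log2 −0.69). TFE3, a lysosomal transcription factor that mTORC1 holds in the cytoplasm, rose by 0.57, and EEF2K, a kinase that restrains translation elongation, fell by 0.64. EIF4EBP1 and TFE3 did not pass when scaled to listed reads (0.29 and 0.28). The 4 lost the call without at least 1 library, each of them without the shYAP1 control and without the shYAP3 control library, with limma adjusted p of at most 0.0905 for EIF4EBP1, 0.104 for EIF4EBP2, 0.165 for TFE3 (without the NC deprived library) and 0.0948 for EEF2K.

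Transcription factors known to act on sestrin genes or DDIT4 were read as a further list. Of 13 tested 7 rose and 0 fell, against 16.5% higher and 15.6% lower among all genes tested. Their median log2 fold change was 0.63, against 0.05 for all genes. Scaled to listed reads 6 of the 13 rose and 1 fell. The list was chosen with earlier results of these data known, so these counts are a description only. DDIT3, which encodes CHOP, rose by 5.62, ATF3 by 3.99 and CEBPB by 1.49, and these 3 passed without each library in turn. The other 4, named after their values were seen, were XBP1 (1.46), ATF4 (1.18), NFE2L2 (1.02) and HIF1A (0.63). Of these HIF1A did not pass when any 1 of the 3 control libraries or the NC deprived library was left out (limma adjusted p of at most 0.0714), when scaled to listed reads or with length and GC trends removed. FOXO1 (log2 −0.34, limma adjusted p = 0.0939) and FOXO3 (0.13, 0.584) did not pass. These are transcript levels, and the activity of the factors was not measured.

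**Figure D4:**
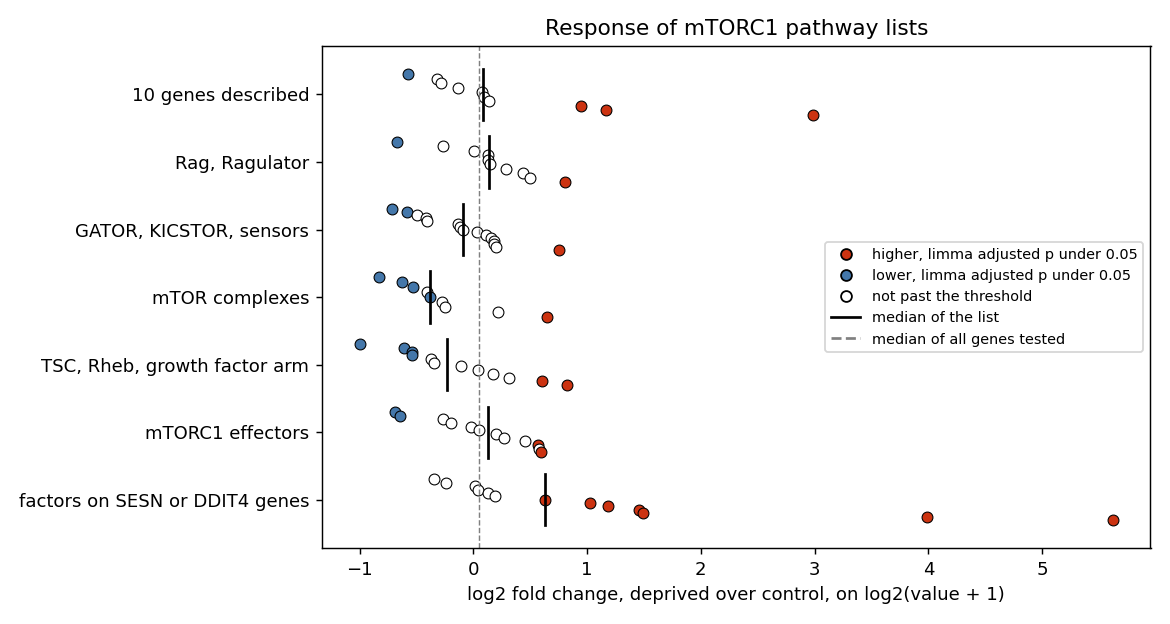
Log2 fold change of deprived over control for every tested gene of 7 lists, filled red or blue where the limma adjusted p was under 0.05, with a black bar at the median of each list and a dashed line at the median of all genes (0.05). The mTOR complexes have a median of −0.38 and the transcription factors a median of 0.63.

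Over the 6 libraries, the profile of SESN2 was like those of HERPUD1 (Pearson r = 0.9996) and HSPA5 (0.999) among 10436 genes with a mean value of at least 5. HERPUD1 and HSPA5 encode a component of reticulum-associated degradation and the reticulum chaperone BiP. DDIT4 was most like PSAT1 (0.991), an enzyme of serine synthesis, CANX (0.991), the chaperone calnexin, and DBNDD2 (0.990). DEPTOR was most like MAP7 (0.993), PPP2R5B (0.991) and JHDM1D (0.988, now KDM7A), and SESN1 like IL1R1 (0.984), TUBD1 (0.983) and RGPD6 (0.978), a gene with near-identical copies whose reads are uncertain. These likenesses are descriptions, because the 6 libraries fall into 2 media and share their depth and scaling within a library.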

How the data were processed

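The deposited table gives 1 signal value per gene and library, a normalized read count whose scaling the authors did not describe. The submitters' processing notes name Bowtie2, BWA and hg19 without role or version, and per the labels' protocols polyadenylated RNA was sequenced. The read counter, annotation and strand setting are not given in the sources used here. Overlaps in GENCODE were not confined to DDIT4, TSC2 and the MPRIP side of FLCN. RRAGC shares 20491 bases with AL139260.2 on the same strand and SESN3 67029 with the antisense gene AP000787.1, neither of them listed. FLCN shares 24974 bases with AC055811.2 on the same strand, listed at 0.555 or less. The part of such overlaps in the values was not tested. All values (100%) were multiples of what a single read was worth (tolerance 0.01 read), and whole reads were recovered from them. The NC control library lists 0 genes at 0, so genes without reads in it are not analysed here.

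The main test was limma 3.58.1 in R 4.3.3, with a trend of variance on mean, on log2(value + 1). Genes entered with a value of 1 or more in 2 or more libraries. The response and the knockdown came from an additive model of genotype and medium, and the difference of the response from a model with their interaction. P-values were adjusted by Benjamini-Hochberg over all genes tested, with a threshold of 0.05. Alternatives were edgeR 4.0.16 and DESeq2 1.42.0 on the recovered reads, other scalings, filters and pseudocounts, removal of length and GC trends, a replicate block and leaving out each library. The fits were tested on simulated data with the same spread for all genes. Of 2-fold changes 98% were recovered in the response, 88% in the knockdown and 11% in the difference of the response. These shares describe the simulated data and need not hold for the real libraries. In the real knockdown KRT20, a colorectal epithelial marker, was 1.78-fold higher. Its unadjusted p in limma was 0.00101 and its adjusted p 0.581. The 88% is thus no evidence that genes which did not pass changed less than 2-fold. Length and GC come from the longest GENCODE v29 transcript (GRCh38, another build than hg19) and were known for 98.0% of genes. Beside the 10 genes, the text names up to 3 genes a direction with the largest change in each pathway list and the 3 most correlated with each gene that passed. A gene taken by this rule is not reported here. The genes and lists were chosen with earlier results of these data known.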

Additional observations from a re-analysis of the deposited data

How the results depend on the processing

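In the response, SESN2 and DDIT4 passed under every alternative run, and DEPTOR and SESN1 under all but 3 and 4 single-library omissions. Of the 10 genes 4 passed, and 2 to 4 without single libraries. Over all genes 3936 passed, but 1412 without the NC control, 1416 without the NC deprived, 1150 without the shYAP1 control and 1086 without the shYAP3 control library, and up to 5306 without the shYAP3 deprived library. Of all calls 51.3% were higher, and 16.5% when scaled to listed reads. In the knockdown 1 gene passed, 7 with DESeq2, 0 without the NC deprived and 5 without the shYAP3 deprived library. In the difference of the response 0 genes passed, 1 with DESeq2, 4 with the replicate block, and 1 (without the shYAP3 control) to 2735 (without the shYAP1 deprived library) in single omissions, with 0 to 3 of the 10 genes. That difference cannot be estimated without an NC library. The replicate block, which pairs the libraries of a line, gave 4453 calls in the response and changed no call among the 10 genes in either comparison. Deviations of the same construct in both media correlated at 0.10 across genes, over 2 constructs.

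Sign changes concerned values that did not pass over all 6 libraries, but TSC1 in the response passed when scaled to listed reads (−0.62), and TSC1 and TSC2 in the difference passed without the shYAP1 deprived library (−0.59 and −0.57). In the response, with length and GC trends removed (with or without the replicate block), SESN3 was −0.0020, RRAGC −0.057, TSC1 0.018, TSC2 0.096 and FLCN 0.0022. When scaled to listed reads SESN3 was −0.19, RRAGC −0.14 and RRAGD −0.20. FLCN ranged from −0.28 to 0.081 over single omissions. In the knockdown TSC1 was 0.012 with the trends removed, and FLCN ranged from −0.43 to 0.0077 over single omissions. In the difference of the response DDIT4 was −0.19 with the trends removed, −0.17 quantile normalized and −0.13 scaled to listed reads. RRAGC was −0.023 with DESeq2, −0.0015 with edgeR, −0.10 with the trends removed and −0.14 scaled to listed reads, where RRAGD was −0.055. Over single omissions this difference ranged from −0.13 to 0.19 for DDIT4, −0.44 to 0.097 for DEPTOR, −0.22 to 0.25 for RRAGC, −0.59 to 0.026 for TSC1 and −0.57 to 0.075 for TSC2. The cause was not tested. Of 27 pathway genes and transcription factors with a call, 7 kept it under each single omission.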
